A study of Mus musculus with 14 samples.

Results

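The glucocorticoid receptor (GR, encoded by Nr3c1) was deleted from the intestinal epithelium of mice, and the unchallenged colon of these mice was compared with that of control mice that carried the same floxed alleles. The comparison held the 4 arrays labelled GR iKO on regular water and the 4 arrays labelled Flox on regular water, 8 of the 14 arrays of the study. Members were taken from the labels alone, and the model was fitted on these 8 arrays so that the spread was that of unchallenged colons. All mice were female C57BL/6 mice of 4 to 6 months. Flox mice were homozygous for loxP-flanked GR alleles, and GR iKO mice carried the same alleles with a Cre transgene driven by the Villin promoter, which is active throughout the intestinal epithelium and made the deletion constitutive. The Cre transgene and the loss of GR came together in every GR iKO mouse, and their effects cannot be told apart. Each array held 500 ng of total RNA from colon tissue, labelled in a single color. The other 6 arrays held 3 samples of Flox and 3 of GR iKO mice given 2.5% dextran sulfate sodium (DSS), an agent that injures the colonic epithelium, for 7 days.

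GR is a ligand-activated transcription factor that binds glucocorticoid hormones in the cytoplasm, enters the nucleus and raises or lowers transcription of its target genes. Targets known from many tissues include Fkbp5, Tsc22d3, Per1, Sgk1 and the metallothioneins Mt1 and Mt2. Metallothioneins are small cysteine-rich proteins that bind zinc and copper. Their genes are also switched on by zinc through the metal-responsive factor Mtf1, and by inflammation. GR is made by nearly every cell type of the colon wall, and Villin-driven Cre acts in the epithelium. In RNA from the whole colon, fewer cells of a type and less RNA per cell cannot be told apart.

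Levels are given on the log2 scale with the 75th percentile of each array's own signal set to 0 and 1 unit is a doubling. The 75th percentile lay between 707 and 1003 intensity units on the 8 arrays, and 64.7% to 71.3% of all probes were well above background. Arrays correlated at 0.983 to 0.990 within a genotype and at 0.982 to 0.992 between genotypes. Each slide carried 1 Flox and 1 GR iKO array on water, and the GR iKO array always had the second position on its slide and the Flox array the first. Position on the slide and genotype cannot be told apart.

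Some arrays stood apart from the rest of their group. On GR iKO replicate 1, all 4 probes of Xist, the RNA that coats the inactive X chromosome, were not well above background. The brightest Xist probe (A_51_P145453) read −8.11 on that array and 4.12 to 4.36 on the other 7, and the probe of its antisense partner Tsix read −7.40 against −2.51 to −2.34. Probes of the Y-linked genes Ddx3y, Eif2s3y, Kdm5d and Uty reached that level on none of the 8 arrays. Of 4 genes known to escape X inactivation, 3 read lowest on the same array. Kdm5c (A_51_P477902) read 1.47 there and 1.93 to 2.03 elsewhere on water, and Eif2s3x (A_51_P256154) read 2.48 there and 2.93 to 3.24 elsewhere, and Kdm6a read −1.77 there and −1.41 to −0.93 elsewhere. Ddx3x did not stand apart, at 1.43 there and 1.43 to 1.79 elsewhere on its brighter probe (A_51_P418420) and within the range of the other arrays on the second. What sets this array apart was not tested. The Nr3c1 and Mt1 differences, the number of calls, the list medians and some list members are also given without it below.

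Genes of the exocrine pancreas, which are not defining genes of any cell of the colon wall, differed widely between arrays of the same genotype. Lipase Pnlip read 1.60, 0.88, −7.68 and 4.58 on Flox replicates 1 to 4 and 4.82, −7.44, 4.20 and 1.60 on GR iKO replicates 1 to 4. The protease genes Cela3b, Cpa1 and Prss2, the amylase Amy2a5 and Reg1 had a similar pattern over the arrays. Flox replicate 3 and GR iKO replicate 2 held the least of this signal, and Flox replicate 4 and GR iKO replicates 1 and 3 held the most. The mean of 14 pancreas genes, a list chosen after these values were seen, ranged from −5.62 to 3.51 in Flox and from −5.31 to 3.55 in GR iKO relative to the mean of the 8 arrays. Arrays with high and with low levels were found in both genotypes. The first principal component of the 8 arrays held 26.6% of the variance and the second 21.1%, and neither separated the genotypes.

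**Figure D1:**
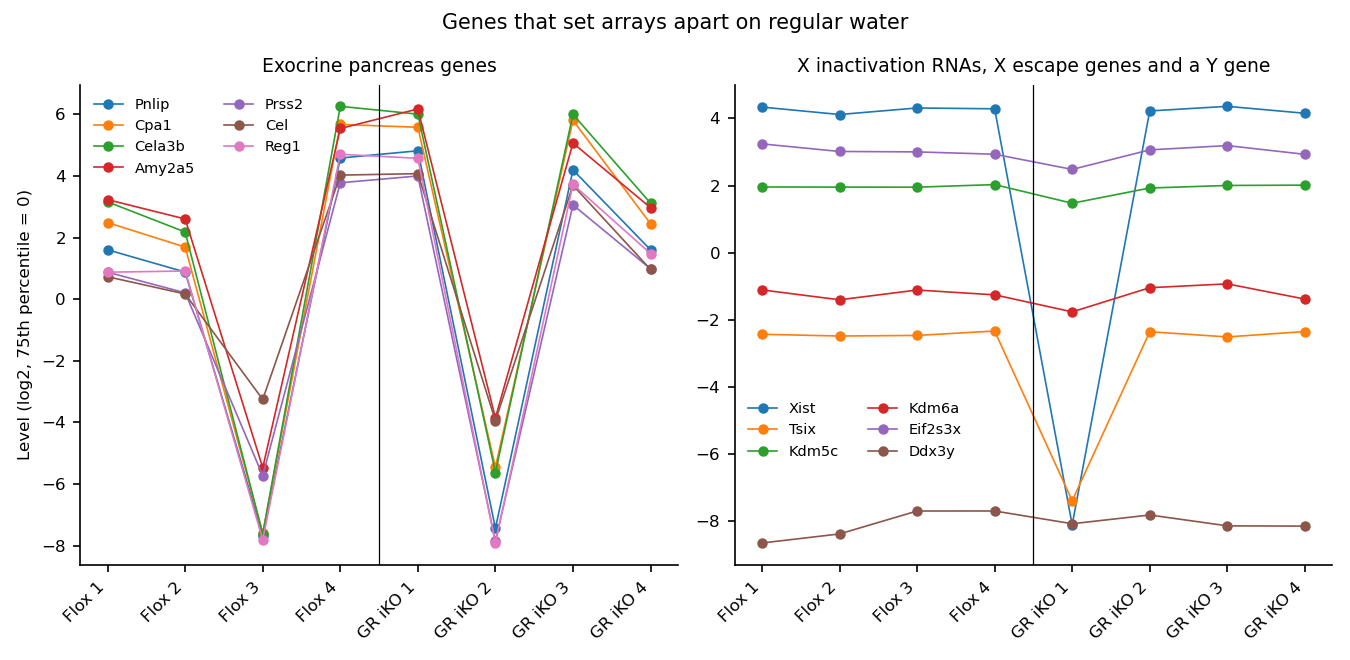
Levels on the log2 scale (75th percentile of the array at 0) of exocrine pancreas genes (left) and of X inactivation RNAs, X escape genes and the Y-linked Ddx3y (right) on the 8 water arrays, 1 probe a gene, with lines joining the values of 1 gene. Pancreas genes fell to the bottom on Flox replicate 3 and GR iKO replicate 2, and Xist and Tsix were lost on GR iKO replicate 1 only.

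Nr3c1 itself was measured by 4 probes, all well above background on all 8 arrays. Where these probes lie relative to the deleted exon is not given in the sources used here, so a probe outside it would understate the deletion. Probe A_52_P63106 read −1.49, −1.34, −1.34 and −1.37 on Flox replicates 1 to 4 and −2.30, −2.16, −2.22 and −2.39 on GR iKO replicates 1 to 4. The groups lay well apart, with little spread in either. GR iKO was lower by a log2 difference of −0.88 (SE 0.08, 95% interval −1.07 to −0.70, n = 4 and 4, limma adjusted p = 0.0284), which is 54.2% of the Flox signal. Probe A_52_P138090 had the highest Nr3c1 signal and read 1.05, 1.17, 1.18 and 1.38 in Flox and 0.36, 0.57, 0.44 and 0.19 in GR iKO. Its difference was −0.80 (SE 0.11, limma adjusted p = 0.273), or 57.3% of Flox. Probe A_51_P355693 read −4.17 to −3.75 in Flox and −5.28 to −4.78 in GR iKO, a difference of −1.07 (SE 0.14, limma adjusted p = 0.248).

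The fourth probe behaved differently on 1 array. A_52_P254174 read −3.24 to −2.93 in Flox and −4.10, −2.64, −4.26 and −4.62 in GR iKO, so that GR iKO replicate 2 lay above every Flox array while the other 3 lay below. Its mean difference was −0.84 (SE 0.38), and −1.27 without GR iKO replicate 2, where it was not called either (limma adjusted p = 0.194). The other 3 Nr3c1 probes placed GR iKO replicate 2 among the low arrays. In exact two-sided permutation tests, the 3 probes whose groups did not overlap had p = 0.0286, the smallest that 4 against 4 arrays can give, and A_52_P254174 had p = 0.143. Within the 4 slides the differences of A_52_P63106 were −0.73, −0.82, −0.96 and −1.03. Leaving out any 1 array moved its difference only between −0.92 and −0.84, but the call was lost each time (limma adjusted p = 0.0808 to 0.246), and without GR iKO replicate 1 the difference was −0.87 (adjusted p = 0.196). With the slide as a block, the adjusted p was 0.456.

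Mt1, which encodes metallothionein 1, had the largest differences of the called probes, and both of its probes were higher in GR iKO. Probe A_51_P294979 read 2.62, 3.37, 3.30 and 3.29 on Flox replicates 1 to 4 and 5.90, 5.92, 6.01 and 6.31 on GR iKO replicates 1 to 4. The lowest GR iKO array stood more than 2 units above the highest Flox array. The difference was 2.89 (SE 0.18, 95% interval 2.47 to 3.30, n = 4 and 4, limma adjusted p = 0.00465), a 7.40-fold higher signal in GR iKO with an interval of 5.55-fold to 9.88-fold. Probe A_52_P423810, which the array assigns to a predicted Mt1 transcript of RefSeq, read −3.11, −2.84, −2.26 and −2.11 in Flox and 0.84, 1.23, 1.26 and 1.99 in GR iKO. Its difference was 3.91 (SE 0.29, 95% interval 3.24 to 4.58, limma adjusted p = 0.00944), or 15.0-fold, and the groups again lay far apart. Exact two-sided permutation tests gave p = 0.0286 for each Mt1 probe, again the smallest that this design allows. Probe sequences are not given in the sources used here. Whether these probes read only RNA of the Mt1 gene itself was not tested.

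As the Mt1 groups did not overlap, the difference was necessarily above 0 within every slide, and only its size could vary. For A_51_P294979 the 4 within-slide differences were 3.39, 2.54, 2.60 and 3.02, and for A_52_P423810 they were 4.37, 4.07, 3.10 and 4.11. A limma fit with the slide as a block called 0 probes (972 had an unadjusted p under 0.05), and both Mt1 probes had an adjusted p of 0.0613. Without 1 array, A_51_P294979 was called each time, and A_52_P423810 was not called without Flox replicate 2 (adjusted p = 0.0752), GR iKO replicate 2 (0.0631) or GR iKO replicate 3 (0.0680). Without GR iKO replicate 1, the array that lacked Xist, the differences were 2.93 and 4.07 (limma adjusted p = 0.0241 for both). GR iKO replicates 1 and 2, which held the most and the least pancreas signal of their group, read 5.90 and 5.92 on A_51_P294979. With the pancreas mean as a covariate, an alternative chosen after seeing the data, the Mt1 differences were 2.89 (adjusted p = 0.0277) and 3.93 (adjusted p = 0.0443), and that of Nr3c1 probe A_52_P63106 was −0.87 (adjusted p = 0.118).

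**Figure D2:**
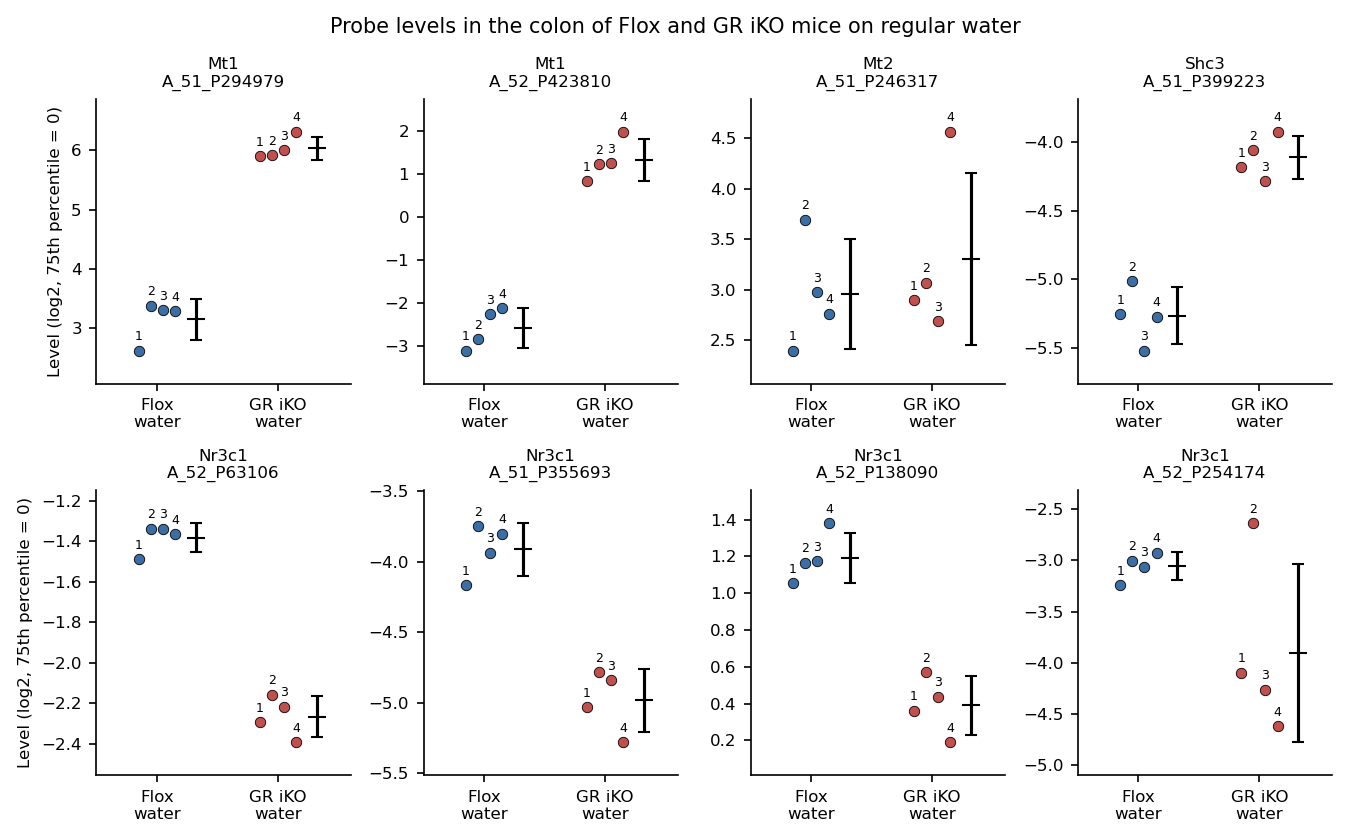
Levels on the log2 scale (75th percentile of the array at 0) of 2 Mt1 probes, Mt2, Shc3 and the 4 Nr3c1 probes on regular water, 1 point per array numbered by replicate, with the group mean and SD (n = 4) beside the points. Every GR iKO point lies above every Flox point for Mt1 and Shc3 and below for 3 Nr3c1 probes, while the groups overlap for Mt2 and for Nr3c1 probe A_52_P254174, where GR iKO replicate 2 is high.

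Mt2, the adjacent gene, encodes the other widely expressed metallothionein and is usually switched on together with Mt1. It did not follow Mt1. The Mt2 probe A_51_P246317 read 2.40, 3.69, 2.97 and 2.77 in Flox and 2.90, 3.07, 2.69 and 4.56 in GR iKO. The groups overlapped, with GR iKO replicate 4 alone above all Flox arrays. The difference was 0.35 (SE 0.43, 95% interval −0.65 to 1.34), which excludes for Mt2 a difference of the size measured at either Mt1 probe. The other metallothioneins of the cluster overlapped between the groups, with differences of −0.02 for Mt3 (SE 0.10) and −0.02 for Mt4 (SE 0.17). The tested genes next along the chromosome on either side also overlapped between the groups, with differences of −0.14 (SE 0.10) for Bbs2, 0.12 (SE 0.08) for Ogfod1, −0.04 (SE 0.16) for Nup93, 0.09 (SE 0.11) for Herpud1, −0.22 (SE 0.29) for 9330175E14Rik, −0.02 (SE 0.13) for Cpne2 and −0.16 (SE 0.08) for Psme3ip1. None of these neighbors was called, and neither were the 5 tested genes on each side of Nr3c1, whose differences ran from −0.15 (Gnpda1) to 0.27 (Spry4).

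The sequences upstream of both genes are shown because Mt1 and Mt2 lie next to each other and share their best-known regulators, while their measured differences were far apart. The 250 bases before the RefSeq start of each gene (GRCm38.p6, plus strand, 5′ to 3′) are printed with matches to the core of the metal response element, TGCACNC or TGCGCNC on either strand, in capitals. They are chr8:94178839-94179088 for Mt1 and chr8:94172368-94172617 for Mt2.
Mt1: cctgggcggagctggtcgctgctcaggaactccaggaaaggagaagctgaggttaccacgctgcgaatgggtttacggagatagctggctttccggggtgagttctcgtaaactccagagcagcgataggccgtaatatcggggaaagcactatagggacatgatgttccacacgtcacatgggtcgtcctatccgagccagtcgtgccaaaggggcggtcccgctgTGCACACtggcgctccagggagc
Mt2: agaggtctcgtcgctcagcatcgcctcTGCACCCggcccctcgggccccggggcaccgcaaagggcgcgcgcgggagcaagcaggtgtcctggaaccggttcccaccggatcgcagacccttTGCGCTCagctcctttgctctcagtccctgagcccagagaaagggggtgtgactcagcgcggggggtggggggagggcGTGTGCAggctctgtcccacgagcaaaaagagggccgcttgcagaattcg

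The Mt1 window held 1 such core and the Mt2 window 3. A match occurred in 21.4% of 32851 RefSeq windows of this length, and at least 3 matches in 1.26%. With the 50 bases after each start included, the counts were 3 for Mt1 and 4 for Mt2, and 1.97% of all such windows held at least 3. The Mt1 count thus depended on where its window ended, and the counts give no ranking of Mt1 and Mt2. Neither 250-base window held the hexamer AGAACA of the GR element on either strand, which 16.1% of windows held, and so neither held the palindromic GR element that repeats this hexamer in inverted form, which 0.00913% held. The outermost RefSeq model of Mt1 starts 206 bases upstream of the start used here, so the window is only 1 of the possible placements. A match is a run of letters and not a measured binding site, and a window without one says nothing about binding elsewhere.

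Across the array, 28147 probes passed the filter, which asked for a signal well above background in 3 or more of the 8 arrays, and were tested. Only 3 were called at an adjusted p under 0.05, the 2 Mt1 probes and Nr3c1 probe A_52_P63106, which is 0.0107% of the probes tested. Unadjusted p values under 0.05 numbered 826, with 413 higher and 413 lower in GR iKO. In 364 probes (1.29% of those tested) every GR iKO array lay above every Flox array, and in 270 probes (0.959%) every GR iKO array lay below. Differences were small in most probes. The median SD within a group was 0.17 in each genotype, and the 95% interval of the difference lay inside 1 log2 unit in either direction in 93.1% of the probes. A difference of at least 1 unit was found in 108 probes, and in 14 of these the groups did not overlap. Without GR iKO replicate 1, the array that lacked Xist, 2 probes were called, both of Mt1.

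**Figure D3:**
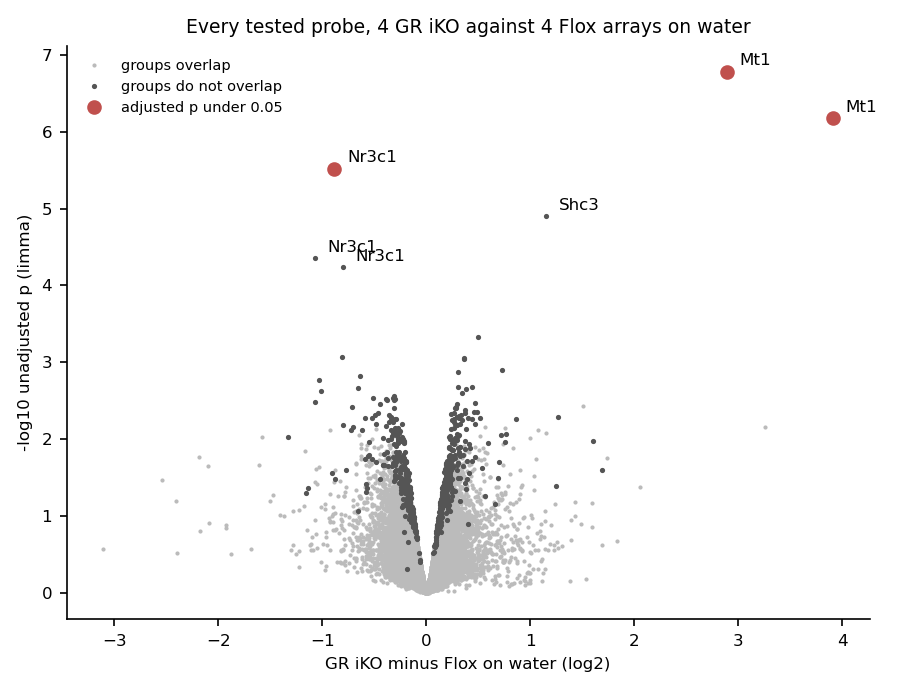
Each tested probe by its difference between GR iKO and Flox on water (x axis, log2) and its unadjusted limma p (y axis, −log10), 4 arrays a group. Red points passed an adjusted p of 0.05, dark points are other probes whose groups did not overlap, and the 2 Mt1 probes and 3 of the Nr3c1 probes stand clear of the cloud together with Shc3.

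Nearest to the threshold was Shc3, an adapter protein of receptor tyrosine kinase signaling that is best known from neurons. Its probe A_51_P399223 read −5.25, −5.01, −5.52 and −5.27 in Flox, where it was well above background on 3 of 4 arrays, and −4.18, −4.06, −4.28 and −3.93 in GR iKO. The groups did not overlap at this low signal, and the difference was 1.15 (SE 0.13, limma adjusted p = 0.0886), or 2.22-fold. Without overlap, the GR iKO array was necessarily the higher one on each of the 4 slides. The probe was called when the arrays were weighted by quality (1.21, limma adjusted p = 0.0363), though in no fit without 1 array (adjusted p = 0.0972 to 0.486). With normexp background correction its difference was 0.32 (limma adjusted p = 1.00). That setting adds an offset of 50 intensity units, which shrinks log2 differences of dim probes. Nr3c1 probe A_51_P355693, also dim, went from −1.07 to −0.43 there. The normexp value therefore cannot tell whether the Shc3 difference depends on its background.

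Several probes per gene were asked to agree, since 1 probe can respond to its own background or to another transcript. Of 5461 genes with at least 2 tested probes, 5 (0.0916%) had all probes higher in GR iKO with at least 2 of them free of overlap, and 2 (0.0366%) had all probes lower. Mt1 and Nr3c1 had the largest mean differences of these 7, at 3.40 over 2 probes and −0.90 over 4 probes. Both kept this status in all 16 alternatives for which it was computed, including the 8 in which 1 array was left out. Groups free of overlap stay so when arrays are left out, so for Mt1 those fits could only keep the status. For Nr3c1 only the sign of A_52_P254174 could have changed in them. These genes were chosen by the same differences that are described here, so the values are a description.

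The other 5 agreeing genes differed little. Extl3, a glycosyltransferase of heparan sulfate synthesis, had a mean difference of 0.18, with Flox at 2.21 to 2.32 and GR iKO at 2.36 to 2.51 on its brighter probe (A_52_P571707). Tug1, a long noncoding RNA, was 0.17 higher over 3 probes, and 2 of these did not overlap. Aph1b, a subunit of the γ-secretase complex, was 0.17 higher, led by probe A_51_P325124 at 0.12 to 0.26 in Flox and 0.51 to 0.62 in GR iKO. Its 2 other probes differed by 0.13 and 0.01. Txndc9, a thioredoxin-domain protein, was 0.16 higher, with differences of 0.15 to 0.16 on its 3 probes. Eif3c, a subunit of translation initiation factor 3, was lower by a mean difference of −0.12 over 4 probes, and it kept this status in only 3 of the 8 alternatives without 1 array. None of these 5 genes was called.

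Genes with a single tested probe could not be checked in this way. Of 9509 such genes, the groups did not overlap in 107 that were higher in GR iKO (1.13%) and in 84 that were lower (0.883%), shares close to or below those over all probes. The 5 largest differences upward were Unc93a (1.27), Shc3 (1.15), Ear10 (0.76), Zfp354b (0.49) and Rtp4 (0.47). Unc93a was well above background on 1 of 4 Flox arrays. GR iKO replicate 3 lay apart and raised the GR iKO mean, at −4.02 against −5.49 to −5.43 on the other 3. Rtp4, an interferon-induced gene, was the only one of these 5 to be well above background on all 8 arrays, with Flox at 1.42 to 1.83 and GR iKO at 1.99 to 2.38. Downward, the rule named Vmn1r185, Arl11 (−1.03), Mmel1 (−1.01), Actl7a and Scn1a (−0.72). Of these only Arl11 was well above background on all 8 arrays, with Flox at −5.02 to −3.97 and GR iKO at −5.73 to −5.23. Mmel1 was well above background on 3 Flox arrays and 1 GR iKO array, so that it passed the filter mainly through Flox. Vmn1r185 and Actl7a were well above background on 3 Flox arrays and on 0 GR iKO arrays, passed the filter through Flox alone, and allow only a bound. Their mean signals were at least 1.58-fold and at least 1.08-fold lower in GR iKO, bounds that leave out the spread between arrays. The dim group was set on each array to the lowest signal well above background, or to its own signal where that was higher. None of these 10 genes passed the test, and their values chose them.

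A single gene with a symbol, Fbxo8, was well above background on all 4 Flox arrays and on no GR iKO array. Its signal was at least 1.49-fold lower in GR iKO, with the dim group set in the same way. The measured means were −5.24 in Flox and −6.01 in GR iKO, their ranges overlapped, and the probe was not called. The opposite pattern was found in 0 probes.

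Lists of 527 genes in 36 groups were then read, with the brightest tested probe standing for each gene. Of these genes 507 had a probe and 472 were tested. Mt1 was the only one called, since the called Nr3c1 probe is not the brightest of its gene. Groups did not overlap for 3 genes that were higher (Mt1, Slc30a4, Trpm5) and 3 that were lower (Nr3c1, Pdk4, Hoxa4). Over all 14970 genes tested, 1.52% did not overlap and were higher and 0.895% did not overlap and were lower, so the share of such genes on the lists was no higher than on the array as a whole. The median difference lay within 0.1 of 0 in 27 of the 36 lists, and the median over all genes was 0.00054. Without GR iKO replicate 1, 22 medians lay within 0.1 of 0, and 28 of the 36 moved by less than 0.1. The largest shift was that of the red blood cell genes, from −0.38 to −0.65.

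The glucocorticoid system beyond Nr3c1 overlapped between the genotypes. Of 15 tested genes for corticosteroid receptors, steroid metabolism and GR chaperones, 1 (Nr3c1) did not overlap. Over all genes tested, 0.895% did not overlap and were lower. The median difference of the list was −0.05, with 13 genes below 0 and 2 above. The mineralocorticoid receptor Nr3c2, which binds the same hormones, differed by −0.09 (SE 0.22). Hsd11b2, which inactivates glucocorticoids, differed by −0.11 (SE 0.18), and Hsd11b1, which regenerates them, by −0.05 (SE 0.20). The largest downward difference after Nr3c1 was Star, a carrier of cholesterol for steroid synthesis, at −0.22 (SE 0.14), and the highest were Nr5a2, a nuclear receptor of intestinal steroid synthesis, at 0.01 and the coactivator Ncoa2 at 0.02.

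Of 29 tested genes that glucocorticoids are known to induce, 1 was called, and it was the upward difference of Mt1. Over all probes tested, 0.0107% were called. Differences were below 0 for 20 genes and above 0 for 9, with a median of −0.05. Textbook targets, named here after their values were seen, all overlapped between the groups. Fkbp5, a cochaperone that limits GR signaling, differed by −0.05 (SE 0.23), and its 2 other probes by −0.10 and −0.28. Tsc22d3, also known as GILZ, differed by −0.21 (SE 0.18), Per1 by −0.08 (SE 0.20) and Sgk1 by −0.08 (SE 0.24). Pdk4, a kinase that holds back pyruvate oxidation, was the only list member besides Mt1 without overlap. It read −2.28 to −1.996 in Flox and −2.42, −2.31, −2.43 and −2.49 in GR iKO. The groups were separated by a narrow gap, and the difference of −0.29 (SE 0.09) was not called. Nfkbia, the inhibitor of NF-κB, was next lowest at −0.25 (SE 0.11).

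Of 24 tested metallothionein and zinc transporter genes, 2 did not overlap and both were higher. Over all genes tested, 1.52% did not overlap and were higher. Besides Mt1 this was Slc30a4, a zinc exporter, which read 0.61, 0.71, 0.66 and 0.51 in Flox and 0.79, 1.01, 1.02 and 0.92 in GR iKO. The difference of 0.32 (SE 0.08) was not called. Slc30a1, another target of the zinc sensor Mtf1, differed by 0.16 (SE 0.15), and Mtf1 itself by 0.05 (SE 0.09). The zinc importers Slc39a4 (−0.04, SE 0.15) and Slc39a14 (−0.09, SE 0.13) overlapped, and the lowest member was Slc30a10 at −0.79 with a wide error (SE 0.57). Among 18 oxidative stress genes the differences ran from −0.28 (Gclc) to 0.41 (Slc7a11), and among 15 heat shock and immediate-early genes from −0.24 (Egr1) to 0.15 (Hspb1), with no gene free of overlap in either list.

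**Figure D4:**
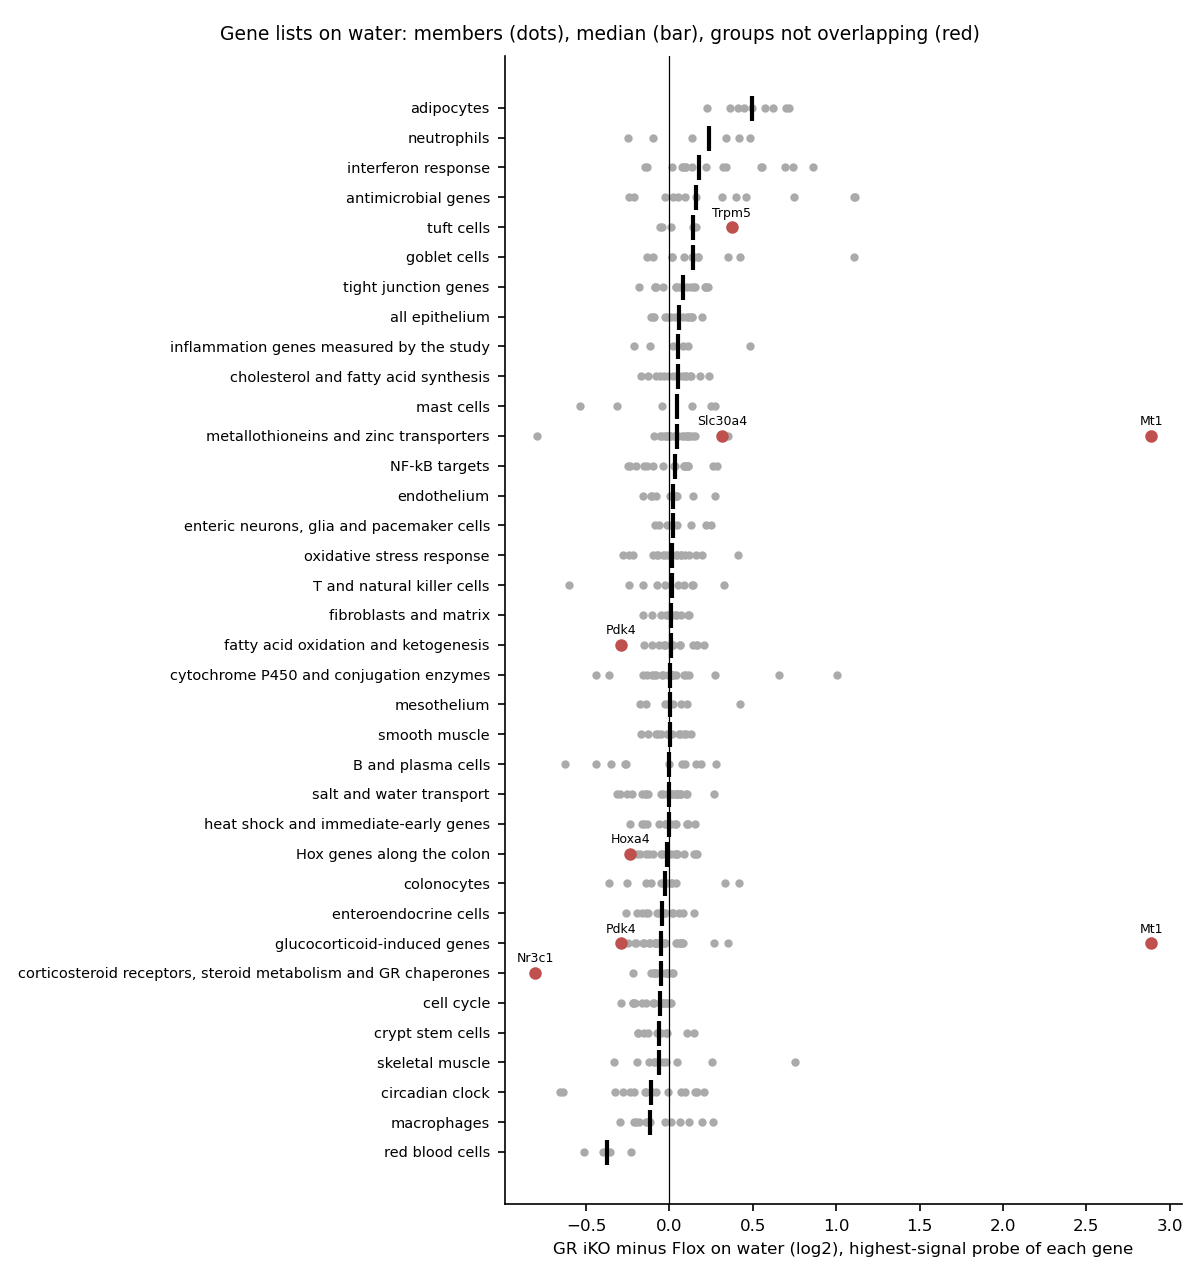
Difference between GR iKO and Flox on water (x axis, log2) for the tested members of 36 gene lists, ordered by list median. Dots are genes by their brightest probe, bars are list medians, and red dots are the genes whose groups did not overlap, of which Mt1 alone lies beyond 1.

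All 14 markers of epithelium as a whole, which included Epcam, Cdh1, Vil1 and the keratins Krt8, Krt18 and Krt19, had differences between −0.11 (Cdx1) and 0.20 (Cdh17), and every 95% interval lay within 1 unit. Villin itself, whose promoter drives the Cre, differed by 0.03 (SE 0.08). Colonocyte markers ranged from −0.37 (Cyp2c55) to 0.42 (Guca2a, the precursor of guanylin), and goblet cell markers from −0.13 (Atoh1) to 1.10 (Retnlb), the latter with a large error (SE 1.19). Muc2, the main gel-forming mucin, differed by 0.42 (SE 0.25). Of 12 goblet cell markers, 10 were above 0 and 2 below, with a median of 0.14. Of 11 crypt stem cell markers, 2 were above 0 and 9 below, with a median of −0.06. Crypt stem cell markers lay between −0.19 (Ascl2) and 0.15 (Znrf3), and enteroendocrine markers between −0.26 (Scg2) and 0.15 (Cck). Genes of the cell cycle ranged from −0.29 (Plk1) to 0.01 (Cdk1), with 15 of 17 below 0 and a median of −0.06. No member of these lists was called or free of overlap.

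Tuft cells are rare chemosensory epithelial cells. Their cation channel Trpm5 read −1.81, −1.52, −1.82 and −1.81 in Flox and −1.28, −1.33, −1.49 and −1.35 in GR iKO. The groups did not overlap, and the difference of 0.37 (SE 0.10) was not called. Il25, the cytokine that these cells release, differed by 0.36 (SE 0.12) with overlap at GR iKO replicate 3. The other 6 tested tuft markers gave a list median of 0.14 together with these.

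Corticosteroids are known to act on salt transport in the colon. The 24 tested genes of salt and water transport had a median difference of −0.00039 and ran from −0.31 (Scnn1g, SE 0.53, a subunit of the epithelial sodium channel) to 0.27 (Kcne3, SE 0.13). Scnn1a differed by 0.07 (SE 0.09), the chloride exchanger Slc26a3 by 0.04 (SE 0.25) and the sodium–proton exchanger Slc9a3 by −0.04 (SE 0.20). The 16 tight junction genes ran from −0.18 (Cldn4) to 0.23 (Cldn15). Lipid synthesis genes ran from −0.17 (Scd1) to 0.24 (Scd2). Among 21 cytochrome P450 and conjugation genes, Cyp2e1 had the largest difference at 1.00 (SE 0.30), with overlapping groups, and Cyp1a1 the lowest at −0.44 (SE 0.30).

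Clock genes were read because the adrenal rhythm can set peripheral clocks. Of 18 tested, 13 were below 0, from Ciart (−0.66, SE 0.57) and Per3 (−0.64, SE 0.29) to Per2 (0.21, SE 0.18), with a median of −0.11. All overlapped.

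Of 10 inflammation genes that the study itself measured, 6 were tested and ran from −0.21 (Cd68) to 0.48 (S100a9, SE 0.62). As the study chose this list, it is not independent evidence of a direction. The 17 tested NF-κB targets had a median of 0.03, from −0.25 (Nfkbia) to 0.29 (Cxcl1, SE 0.73). Macrophage markers had a median of −0.12 and neutrophil markers of 0.24, the latter with errors that left 1 of 6 intervals within 1 unit. T and natural killer, mast, and B and plasma cell markers had medians between −0.00014 and 0.05, with Gzmb (−0.60, SE 0.44), Cma1 (−0.54, SE 0.29) and Ms4a1 (−0.63, SE 0.21) lowest. Antimicrobial genes had a median of 0.16, led by Itln1 (1.11, SE 1.14) and Retnlb.

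Of 16 interferon-induced genes tested, 14 had differences above 0, with a median of 0.18 against 0.00054 over all genes. Isg15, a ubiquitin-like protein, read −0.79, −0.54, −0.92 and −0.62 in Flox and 0.63, 0.13, −0.14 and −0.54 in GR iKO, a difference of 0.74 (SE 0.23). GR iKO replicate 4 lay within the Flox range, and replicate 1, the array that lacked Xist, was highest. Without replicate 1 the difference of Isg15 was 0.54. Oas2, an antiviral synthetase, differed by 0.86 (SE 0.40), and by 0.52 without replicate 1, while Irf1 and Cxcl10 were each at −0.14. The mean of the list ranged from −0.40 to 0.05 in Flox and from −0.14 to 0.40 in GR iKO. The highest mean was that of GR iKO replicate 1, and without this array the list median was 0.18 as before. No member of the list was free of overlap.

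All 9 adipocyte genes tested had differences above 0, from 0.23 (Fabp4) to 0.72 (Plin1), with a median of 0.49, but their mean ranged from −0.80 to 0.61 in Flox and from −0.46 to 0.62 in GR iKO, and none was free of overlap. All 4 red blood cell genes were below 0, with a median of −0.38 and means of −0.35 to 1.19 in Flox and −1.94 to 0.82 in GR iKO. The pancreas list had a median of 0.92 with 14 of 14 genes above 0 and no gene free of overlap. Smooth muscle, fibroblast, endothelial and enteric nerve markers had medians between 0.002 and 0.02. Hox genes, which mark position along the gut, had a median of −0.02 over 19 genes. Hoxa4 (A_52_P443588, −0.23, SE 0.12) did not overlap, but its other probe differed by 0.07 and did. The part of fat or blood in the differences above was not tested.

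The 6 DSS arrays are other samples and give a separate reading of the same genotype difference. Their 75th percentile was 430, 675 and 262 intensity units on Flox replicates 1, 2 and 4. It was 713, 559 and 493 on GR iKO replicates 1, 3 and 4. Flox arrays had position 3 on their slide and GR iKO arrays position 4, so position and genotype cannot be told apart. On DSS, limma called 0 of 27429 tested probes (0%), the lowest adjusted p being 0.199, while 4763 had an unadjusted p under 0.05. Nr3c1 probe A_52_P63106 read −1.52, −1.31 and −1.85 in Flox and −2.48, −2.08 and −2.56 in GR iKO, with a difference of −0.81 (SE 0.23, limma adjusted p = 0.202). Probe A_52_P138090 read 1.27, 1.46 and 1.07 against 0.48, 0.45 and 0.37, and A_52_P254174, which overlapped on water, was free of overlap on DSS with a difference of −0.86 (SE 0.26). A_51_P355693 overlapped, with Flox replicate 4 at −5.55. In 3 against 3 arrays an exact permutation test cannot go below p = 0.1.

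Mt1 probe A_51_P294979 read 5.73, 5.33 and 6.08 on Flox DSS replicates 1, 2 and 4 and 7.10, 6.22 and 6.87 on GR iKO DSS replicates 1, 3 and 4. These groups did not overlap, and the difference was 1.02 (SE 0.31, 95% interval 0.28 to 1.76, limma adjusted p = 0.208, exact permutation p = 0.1). A_52_P423810 read −0.95, −1.64 and 1.54 in Flox and 1.00, 1.78 and 2.08 in GR iKO, with Flox replicate 4 reaching into the GR iKO range (difference 1.97, SE 0.81). Of the 4 GR iKO arrays on water, 1 exceeded the highest Flox DSS array on each Mt1 probe, and all 4 exceeded the lowest. Mt2 read 7.93, 7.39 and 7.90 in Flox on DSS and 8.04, 7.30 and 7.54 in GR iKO. Every DSS array lay above every water array in both genotypes, and the genotypes differed by −0.11 (SE 0.27) on DSS.

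The change in the genotype difference from water to DSS was −1.87 for Mt1 probe A_51_P294979 (adjusted p = 0.0596 over 29520 probes in limma with all 14 arrays) and −1.94 for A_52_P423810 (adjusted p = 0.240). For Nr3c1 probe A_52_P63106 it was 0.08 (adjusted p = 0.883), and for Shc3 −0.95 (adjusted p = 0.0883). Shc3 read −4.21 to −3.47 in Flox and −3.80 to −3.42 in GR iKO on DSS, where the groups overlapped. This test called 0.112% of all probes and 0 of the 167 probes examined by name. These values rest on the same arrays as the differences above and are not independent of them.

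Of the 634 probes free of overlap on water, 606 were also tested on DSS. The genotype difference pointed the same way on both in 56.8% of these, against 50.8% of all 26530 probes tested on both. On DSS, 98 of the 606 (16.2%) were again free of overlap in the same direction and 49 (8.09%) in the opposite one. With 3 arrays a group such separation was common, as 23.5% of all probes tested on DSS were free of overlap in either direction. Over the 26530 probes tested on both, 12.4% were free of overlap on DSS in the direction of their water difference and 10.98% in the opposite one. Among the agreeing genes, both non-overlapping Tug1 probes remained higher without overlap on DSS (0.28 and 0.58). In contrast, Extl3 (−0.97 and −0.19) and Aph1b (−0.40, −0.18 and −0.38) had negative differences there on each probe. The 4 probes of Eif3c, which was lower on water, differed by 0.30, −0.10, −0.93 and −0.11 on DSS. Differences of the list members Pdk4 (−0.08) and Trpm5 (0.01) were close to 0 on DSS. Pancreas genes were uneven on these arrays, with list means of 3.13 to 8.67 in Flox and −4.62 to 5.58 in GR iKO, and adipocyte means of 0.30 to 1.85 and −2.17 to 0.98. With the pancreas mean as a covariate, chosen after seeing the data, limma again called 0 probes on DSS, where 3272 probes had p under 0.05 before adjustment. The part of fat in the DSS values was not tested.

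**Figure D5:**
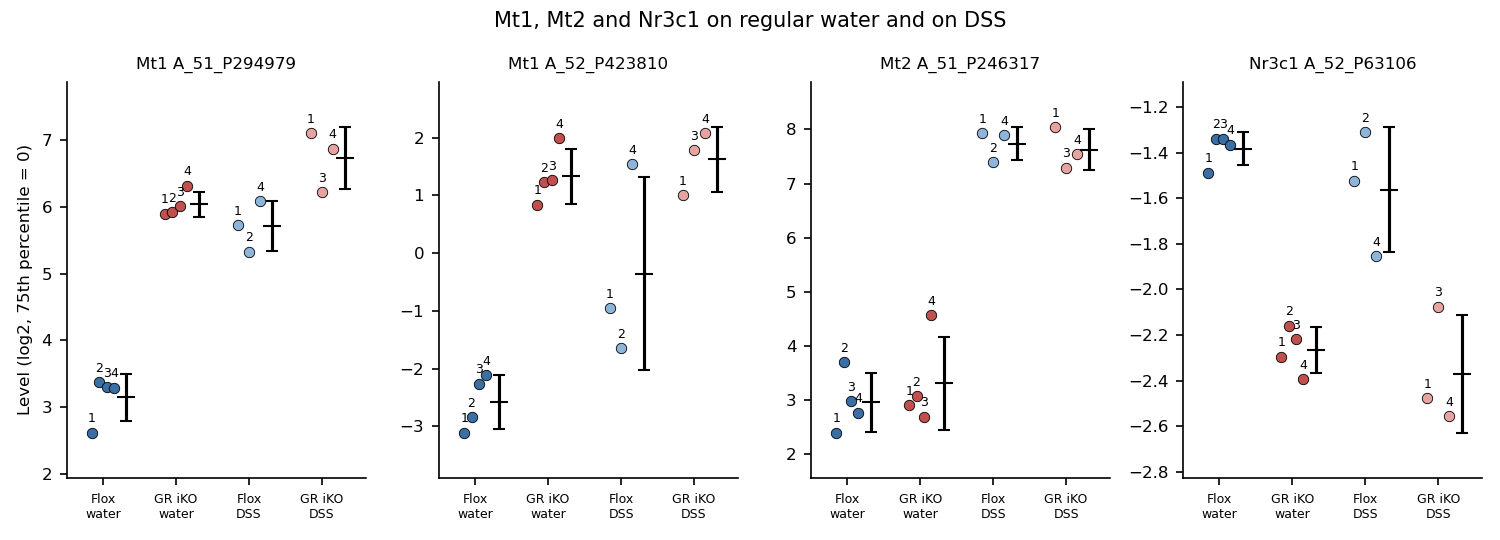
Levels on the log2 scale (75th percentile of the array at 0) of both Mt1 probes, Mt2 and Nr3c1 probe A_52_P63106 in all 4 groups, 1 point per array numbered by replicate, with mean and SD (n = 4 on water, n = 3 on DSS). All GR iKO points for Mt1 lie above the Flox points on water, Mt2 is higher on DSS than on water in both genotypes, and the Nr3c1 probe is lower in GR iKO in both settings.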

How the data were processed

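RNA of 14 colon samples was hybridized to 14 single-color Agilent whole mouse genome arrays. Per the file headers, the authors' scanner files were made with Agilent Feature Extraction 12.0.0.7 and hold background-corrected processed signal intensity per spot. The deposited value table holds log2 values with the same quartiles on all arrays, and the submitters' processing notes also name Partek 6.6. Control spots were left out, outlier spots were set to missing, repeat spots were averaged, and log2 intensity minus the array's 75th percentile was analysed. Of 41174 probes, 29245 had a RefSeq accession and 28223 a symbol from a GRCm38.p6 table. Probes well above background on at least 3 arrays of the comparison were tested with limma 3.58.1 in R 4.3.3 (Benjamini-Hochberg, threshold 0.05), and single values also by exact permutation. Exact permutation p values and limma p values are two-sided.

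Groups came from the labels, which number the replicates and do not say whether each was a separate animal, so p values measure only the spread between these samples. The named genes were all Nr3c1 probes, all called genes, agreeing genes, the 5 largest single-probe differences each way, the 2 highest and 2 lowest members of each list and those called or without overlap, and genes measured in 1 genotype only. Members, lists and tests were chosen with earlier results of these data known. Alternatives covered normalization, background correction (normexp on the median spot signal, since no mean signal was in the files used here), filters, outlier spots, blocks, fits on 14 arrays, weights and leaving out arrays, and the pancreas mean as a covariate and the removal of the 3 arrays richest in it, chosen after seeing the data. Normexp added an offset of 50 intensity units, which shrinks log2 differences of dim probes. The number of arrays limits the precision.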

Additional observations from a re-analysis of the deposited data

Results flagged for a closer look

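In 14 of 130 groups of 4 arrays, 1 array lay far from the other 3. Of these groups, 56 belong to markers added after GR iKO replicate 1 and the pancreas signal had been seen, and they hold 8 of the 14, so the total says nothing about chance. The 74 groups of the other probes hold 6, where chance gives about 1 in 20. On GR iKO replicate 1 these were the 4 Xist probes (−8.11, −8.16, −8.15 and −7.97), Tsix (−7.40), Eif2s3x probe A_51_P305532 (−1.14) and Kdm5c probe A_51_P477902 (1.47). On GR iKO replicate 2 they were Hoxa4 (−4.30) and Aph1b probe A_52_P142191 (−0.73), and on GR iKO replicate 3 Unc93a (−4.02). In Flox they were Mt1 probe A_51_P294979 on replicate 1 (2.62, below the other 3), Trpm5 on replicate 2 (−1.52), and Vmn1r185 (−4.37) and Kdm5c probe A_51_P477902 (2.03) on replicate 4. Without Flox replicate 1 the Mt1 difference was 2.71. No cause was tested for any of these.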

How the results depend on the processing

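Quantile normalization, scaling to the median, the deposited value table, a filter on all 8 arrays, outlier spots kept and eBayes with trend and robust each called 3 probes on water. No filter also called 3, but these were both Mt1 probes and A_52_P631304, which has no symbol (1.74, limma adjusted p = 0.0192). Normexp called 2, array weights 4, the replicate block 2, the fit on all 14 arrays 1 (237 at an unadjusted p under 0.05), the pancreas covariate 2, and the slide block 0 (972). Leaving out the 3 arrays with most pancreas signal also called 0 (853), with Mt1 at 3.02 and 4.35 and Nr3c1 A_52_P63106 at −0.89. The difference of this Nr3c1 probe was not called with normexp (−0.63, limma adjusted p = 0.149), no filter (−0.88, 0.101), the slide block (−0.88, 0.456), the replicate block (−0.88, 0.425), the 14-array fit (−0.88, 0.137) or the covariate (−0.87, 0.118). Mt1 was not called at 2.89 and 3.91 with the slide block (adjusted p = 0.0613 for both), nor A_52_P423810 at 3.91 with the 14-array fit (0.105). Its sign was positive throughout.

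Probes without overlap that were lower numbered 163 with normexp and 435 without a filter, against 270, and agreeing genes that were lower numbered 4 with quantile normalization and with the deposited table. Without the 3 arrays, non-overlapping probes numbered 2358 higher and 2436 lower, and agreeing genes 109 and 158, since fewer arrays separate more easily. Without 1 array, 1 to 2 probes were called, 571 to 994 probes did not overlap and were higher, 414 to 1062 were lower, and agreeing genes numbered 8 to 32 and 4 to 30. There Mt1 A_52_P423810 ran from 3.69 to 4.08 and Nr3c1 A_52_P63106 from −0.92 to −0.84. Signs turned for Eif3c A_52_P303581 with median scaling (0.0011), the covariate (0.0073), the 3 arrays left out (0.053) and some fits without 1 array (range −0.045 to 0.033), for Eif3c A_51_P272005 with the 3 arrays left out (0.019), and for Aph1b A_52_P456750 with array weights (−0.017), the 3 arrays left out (−0.026) and some fits without 1 array (−0.020 to 0.050). The cause was not tested.

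The replicate numbers pair no animals in the labels. Deviations of same-numbered arrays correlated at 0.16, 0.065, −0.099 and 0.36 for replicates 1 to 4. The Flox and GR iKO arrays of replicates 2 and 4 also shared a slide, so number and slide cannot be told apart for these. The block on the replicate number changed no call of Mt1. On DSS the replicate block, with 2 shared numbers, called 3 probes (3756 unadjusted), and the other DSS alternatives called 0. With 4 arrays a group, the number of arrays limits the precision, and 6.93% of probes had an interval reaching beyond 1 log2 unit.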
